A study of Xenopus laevis with 2 samples.

Results

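Chromosomes 4L and 4S are a homeologous pair of the African clawed frog Xenopus laevis, and the regions described here are all peaks of accessible DNA that were called on them in embryos before zygotic genome activation (ZGA). They numbered 34530 of 325974 peaks in replicate 1 and 29591 of 277551 peaks in replicate 2, with 18294 and 15586 peaks on 4L and 16236 and 14005 peaks on 4S. The pair was chosen by a measured value, the dip in peak coverage at the ends of protein-coding genes, so that dip is given as a description with no test. A dip deeper than that of all other pairs was not what the data showed for 4L and 4S together. On 4S it was the deepest of the 18 assembled chromosomes in each replicate, whereas 4L ranked 10 and 14, and the pooled ends of pair 5 had a deeper dip than those of pair 4.

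The study asked whether chromatin features of gene promoters are present in embryos that do not yet transcribe their genome. Its accessibility assay, CATaDa, uses an untethered bacterial Dam methylase that methylates adenine within GATC motifs where the DNA can be reached. Wild-type embryos received 2.3 ng of the pRN3P_AID-Dam-only construct as zygotes and were collected whole at the 256-cell stage, 4.5 h after fertilisation. They made up a single group of 2 replicates with 500 embryos each, so cells of all future lineages were pooled and no condition could be compared. No library from embryos without Dam was analysed here. The paper normalised promoter accessibility to the local density of GATC motifs. Peak coverage is given here without that correction, so motif density was not separated from accessibility.

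The X. laevis genome arose from a hybrid of ancestral frog species, and most of its chromosomes persist as a long (L) and a short (S) homeolog that carry many of the same genes in related order. The L and S copies of a gene share ancestry, are marked by the suffix of the gene symbol, and can differ in regulation. Before ZGA the embryo divides rapidly on maternal stores, and its chromatin is copied in nearly every short cycle.

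Peaks covered 4.91% of 4L in replicate 1 and 4.60% in replicate 2, a mean of 4.76% ± 0.224 (SD, n = 2). On 4S the coverage was 5.14% and 4.87%, a mean of 5.0% ± 0.193 (SD, n = 2). Both homeologs lay within the span of the other 16 chromosomes, which was 4.52% to 5.57% in replicate 1 and 4.20% to 5.32% in replicate 2. The difference of 4S minus 4L was 0.228 and 0.272 percentage points, a mean of 0.250 ± 0.0311 (SD, n = 2), and it ranked 4 of the 9 pairs. In each replicate 4S was thus above 4L, while the drop from replicate 1 to replicate 2 on either chromosome was of similar size to the gap between the homeologs. This order is not particular to pair 4, since S was above L in all 9 pairs in each replicate. The mean differences ran from 0.120 points in pair 5 to 0.707 in pair 8. Peak density pointed the same way, with 118 and 100 peaks per Mb on 4L against 122 and 106 peaks per Mb on 4S.

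Individual peaks of both chromosomes were alike in shape. Median widths were 336 and 373 bp on 4L and 337 and 377 bp on 4S in replicates 1 and 2. The median fold enrichment, the ratio of the read pileup to the background of the peak caller, was 4.32 and 4.48 on 4L and 4.35 and 4.48 on 4S. Between 37.1% and 38.6% of the peaks on each chromosome had the smallest width in their list, 310 bp for replicate 1 and 349 bp for replicate 2. Only 1.64% to 2.08% reached 1 kb. Of the pair's peaks, 66.9% in replicate 1 and 77.8% in replicate 2 overlapped a peak of the other list by 1 bp or more, and the shares on the other 16 chromosomes were 66.5% and 77.8%. Over the 23112 shared peaks of replicate 1 Spearman's rho of fold enrichment between replicates was 0.620. Peaks without a partner were weaker, with a median fold enrichment of 3.65 and 3.73 on each of 4L and 4S against 4.84 to 4.92 for shared peaks.

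Along each chromosome the peak coverage was unevenly spread, and the pattern repeated between replicates. In fixed 1 Mb bins counted from the first base, the 155 bins of 4L ranged from 2.70% to 7.53% in replicate 1, with a median of 4.84%, and from 2.48% to 7.40% in replicate 2, with a median of 4.48%. The 132 bins of 4S ranged from 2.86% to 8.06%, with a median of 4.97%, and from 2.65% to 7.87%, with a median of 4.72%. Spearman's rho between replicates was 0.942 over the bins of 4L and 0.955 over those of 4S. Stretches near the tips were on average richer in peaks than the interior, here and on all 18 chromosomes. Single bins there could be low, such as the first bin of 4S at 4.41% and 4.01%. The outer 10 bins at either end of 4L averaged 5.92% and 5.41% against 4.76% and 4.47% for the inner bins, and on 4S they averaged 6.11% and 5.88% against 4.97% and 4.69%. Coverage was only loosely related to the number of protein-coding genes in a bin, with rho from 0.244 to 0.332. Bins share libraries and neighbours, so these correlations are descriptions without p-values.

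**Figure D1:**
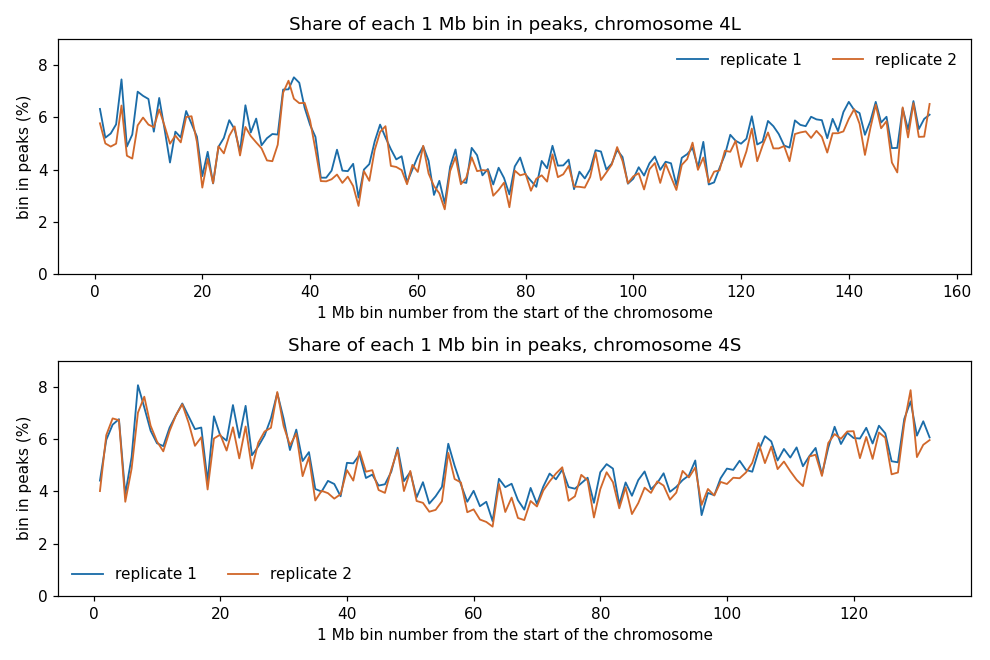
Share of each 1 Mb bin in peaks (%, vertical axis) against the bin number from the start of 4L (top, 155 bins) and 4S (bottom, 132 bins), with 1 line per replicate. The lines of both replicates rise and fall together. They are mostly high toward the tips, high near bins 35 to 37 of 4L and bin 29 of 4S, and low in the interior.

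The poorest bins lay in the interior of both chromosomes and held few genes. On 4L the lowest was bin 65 (64000001 to 65000000), with 2.70% and 2.48% of its bases in peaks and the zinc finger genes tshz3.L and znf536.L. Bin 49, with the cadherin gene cdh8.L, followed at 2.93% and 2.61%. Bin 77 held 3.05% and 2.56% and the genes tyw3.L, cryz.L, erich3.L, tnni3k.L and negr1.L, the last of which encodes a neuronal adhesion protein. The lowest bin of 4S was bin 63 (62000001 to 63000000), with 2.86% and 2.65%, and it contained erich3.S, tnni3k.S and lrriq3.S. The cardiac kinase gene tnni3k and its neighbour erich3 therefore lay in one of the 3 lowest bins of either homeolog. The other low bins of 4S were bin 68 with jun.S, oma1.S and dab1.S (3.3% and 2.90%) and bin 61 with adgrl4.S and gipc2.S (3.43% and 2.92%).

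The 3 richest bins of 4L were adjacent to one another. Bin 36 (35000001 to 36000000) reached 7.07% and 7.40% and held dus2.L, a tRNA dihydrouridine synthase gene, and the RNA helicase gene ddx28.L. Bin 37 had 7.53% and 6.71% and no named protein-coding gene, and bin 35 had 7.06% and 6.94% and the Iroquois homeobox gene irx5.L. These bins were gene-poor, with 2 to 4 protein-coding genes by midpoint. On 4S the richest, bin 29 (28000001 to 29000000), reached 7.76% and 7.80% with 2 protein-coding genes, neither of them named, and lay about 3 bins beyond irx5.S, whose gene starts at 25299897. It did not lie opposite bins 35 to 37 of 4L. Bin 29 of 4S sits between tiprl.S and XB5885308.S in bin 28 and nkd1.S in bin 30, and the L copies of these genes are in bins 39 and 40 of 4L. The next richest bins of 4S were crowded with genes. Bin 129, at 7.44% and 7.87%, had 25 protein-coding genes, among them the forebrain homeobox gene hesx1.S, and bin 7, at 8.06% and 7.01%, had 26, among them the replication nuclease gene fen1.S, the desaturase genes fads1.S and fads2.S and the chromosomal passenger gene incenp.S.

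Stretches with no peak in either replicate were short on this scale. The longest on 4L ran for 92.7 kb, from 20497764 to 20590465, across LOC108704979, and the longest on 4S ran for 80.5 kb, from 60204305 to 60284845, and overlapped no gene. There were 19 such stretches of 50 kb or more on 4L and 16 on 4S.

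The landscape of 4L was then laid against that of 4S through their genes. Of the protein-coding genes, 897 had an .L copy on 4L and an .S copy on 4S. Gene order was reversed between homeologs in the first 32 Mb of 4L, where the rho of gene positions was -0.999 over 224 gene pairs. That reversed block mapped to 0.290 to 23.5 Mb of 4S. From 33 to 65 Mb (116 gene pairs) and from 71 Mb to the end (517 gene pairs) the order was parallel, with a rho that rounds to 1. Between them, from 66 to 71 Mb, the order was mixed and largely reversed, with a rho of -0.626 over 34 gene pairs. For the 129 bins of 4L with at least 2 such gene pairs, the 1 Mb window of 4S centred on the median position of the S copies was taken as the match. Coverage of matched windows had a rho of 0.755 in replicate 1 and 0.720 in replicate 2. With the homeologs taken from different replicates it was 0.719 and 0.748. The window on 4S was the higher of the pair in 87 and 91 of 129 cases, with a median difference of 0.252 and 0.368 percentage points. Windows of 4S overlapped where their centres lay less than 1 Mb apart. The 129 matches therefore reuse sequence of 4S and are not separate from one another.

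**Figure D2:**
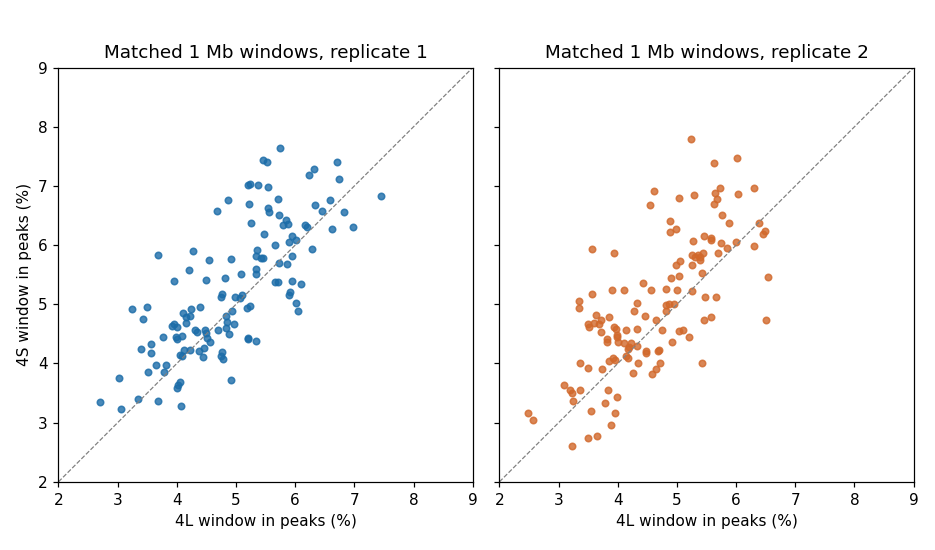
Share in peaks (%) of 129 bins of 4L (horizontal axis) and of the 1 Mb windows of 4S matched to them by their gene pairs (vertical axis), with replicate 1 on the left and replicate 2 on the right. The dashed line marks equal shares, and the points follow it with a rho of 0.755 and 0.720, most of them above it. Some windows of 4S overlap one another.

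Matched windows also came from the reversed block, for which no rho of its own was computed. Bin 5 of 4L, which holds galnt18, usp47 and tead1, had 7.45% and 6.45%, and its match at 18574582 to 19574581 of 4S had 6.83% and 6.18%. Other bins of the block differed more from their match, such as bin 27, with 4.68% and 4.54% on 4L against 6.58% and 6.67% on 4S. Bin 65, the poorest of 4L, had a match on 4S with 3.35% and 3.16%. Bin 77, with erich3 and tnni3k, had a match with 3.23% and 3.04%. High and low megabases on 4L therefore lay opposite high and low megabases on 4S for bins 5, 65 and 77, which were picked as examples. Bin 89, with pomgnt1, nsun4 and 10 other gene pairs, was 1 of several exceptions, at 3.25% and 3.35% on 4L against 4.92% and 5.05% on 4S. The gap was wider for bin 42, at 3.69% and 3.56% on 4L against 5.83% and 5.93% on 4S. In bin 122 the order was the other way, with 6.04% and 5.57% on 4L against 4.88% and 4.79% on 4S.

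Single genes resembled their homeologs far less closely than these megabase windows did, on a measure that counts few peaks per gene. The share of a gene and 1 kb on either side that lay in peaks had a rho between L and S copies of 0.182 in replicate 1 and 0.185 in replicate 2 over the 897 gene pairs. The same copies compared between replicates gave a rho of 0.744 for L and 0.703 for S. The median of S minus L was 0.0496 and 0.0586 percentage points, and the S copy was higher in 452 and 453 gene pairs and the L copy in 422 and 413. The direction repeated in both replicates for 345 gene pairs with S above L and for 311 with L above S.

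The widest gaps between homeologs came from short genes, where 1 peak moves the share by many points. The vasodilator peptide gene adm had no peak on 4L in either replicate, and its S copy (18633458 to 18636197) had 2 peaks and 18.2% and 20.4%. For fjx1, related to the fly planar polarity gene four-jointed, the L copy had 7.67% and 0% and the S copy 20.8% and 27.0%. The sphingosine-1-phosphate receptor gene s1pr1 had 3.79% and 0% on 4L and 15.7% and 12% on 4S. In the opposite direction, tmem53 had 23.5% and 24.2% on 4L and 5.0% and 5.62% on 4S. The interferon-induced ifitm1 had 16% and 17.9% on 4L and 2.50% and 2.77% on 4S, where the annotated gene is much longer. The lens forkhead gene foxe3 had 26.1% in each replicate on 4L and 11.5% and 14.4% on 4S. In none of these 6 genes did the values of L and S overlap between replicates, but they were picked for that gap and it carries no test.

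At gene ends, 4S and 4L parted. Protein-coding genes of at least 10 kb were used, and the coverage within 300 bp of either end was set against the mean of flanks 2 to 5 kb outside and inside the gene. The gene table gives no strand, so transcription starts and ends could not be told apart. On 4S, with 2222 ends of 1111 genes, the coverage at the ends was 3.92% in replicate 1 and 3.87% in replicate 2. The outside flanks had 5.52% and 5.27% and the inside flanks 5.33% and 5.09%. Ends minus flanks came to -1.51 and -1.31 percentage points, a mean of -1.41 ± 0.141 (SD, n = 2).

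On 4L, with 2952 ends of 1476 genes, the ends had 4.79% and 4.58%, the outside flanks 5.36% and 5.05%, and the inside flanks 4.95% and 4.66%. Ends minus flanks was -0.370 and -0.280 percentage points, a mean of -0.325 ± 0.0634 (SD, n = 2), close to the mean of -0.399 ± 0.120 (SD, n = 2) over the other 16 chromosomes. The flanks of 4S were thus slightly above those of 4L, and its gene ends were below those of 4L. The chromosomes next to 4S in depth were 5S, with a mean of -0.974, and 5L, with a mean of -0.958. Pooled over both homeologs, pair 4 had -0.860 and -0.724 and ranked 2 and 3 of 9 pairs, and pair 5 had -0.982 and -0.948 and ranked 1 in each replicate.

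**Figure D3:**
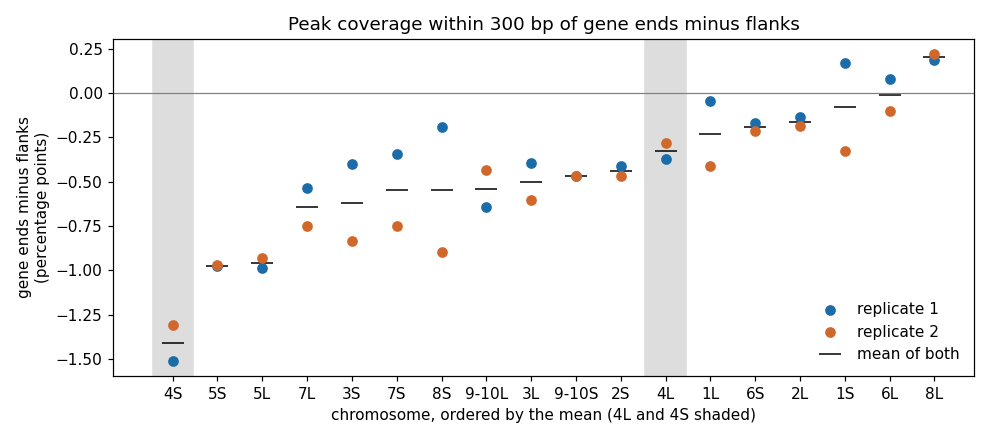
Peak coverage within 300 bp of gene ends minus the coverage of flanks 2 to 5 kb away (percentage points, vertical axis) for the 18 chromosomes, ordered by the mean, with 1 point per replicate and a bar for their mean. The dip on 4S (-1.51 and -1.31) is the deepest in each replicate, and 4L (-0.370 and -0.280) sits among the other chromosomes.

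The profile in 100 bp bins placed the dip of 4S just outside the gene. Its lowest bin was centred 150 bp outside the end in each replicate, with 3.55% and 3.39%. Between 5 kb inside and 5 kb outside, the highest bins of the same profile had 6.47% and 6.04%. On 4L the lowest bin within 1 kb lay further out, 750 bp outside with 4.13% in replicate 1 and 850 bp outside with 3.91% in replicate 2. In replicate 2 the lowest bin of the whole 4L profile lay 2250 bp inside genes, at 3.81%, so the trough outside the gene was no lower than other fluctuations of that curve. Over the other 16 chromosomes the lowest bins were centred 250 and 150 bp outside, with 4.64% and 4.33%.

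**Figure D4:**
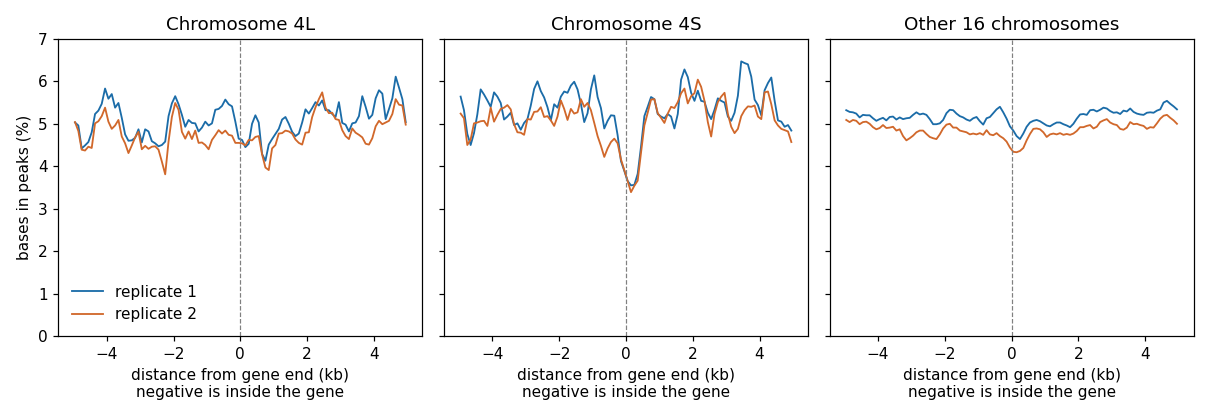
Share of bases in peaks (%, vertical axis) in 100 bp bins from 5 kb inside (negative) to 5 kb outside gene ends (horizontal axis), for 4L, 4S and the other 16 chromosomes, with 1 line per replicate. On 4S both lines fall to 3.55% and 3.39% at 150 bp outside the gene, and the lines of 4L and of the other chromosomes do not fall as low there.

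A peak within 300 bp was found at 236 (10.6%) of the ends on 4S in replicate 1 and at 210 (9.45%) in replicate 2, and at 367 (12.4%) and 326 (11%) of those on 4L. Across all 18 chromosomes the share was 12.1% and 10.5%. This count uses the contrast that chose the pair, so nothing is read from it. Ends with no peak in either replicate made up 86.5% on 4S, 85.0% on 4L and 85.4% over all chromosomes. Most gene ends thus had no peak on any of them. The dip is a mean over all ends, including those without a peak. Where a 4S end was touched at all, the median share of its 600 bp in peaks was 36.9% and 40.8%, against 40.2% and 42.8% on 4L.

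The dip of 4S was present in every subset examined, and that of 4L was not. These subsets recut the contrast that chose the pair, so they describe the dip and add no support for it. On 4S the means of both replicates were -1.55, -1.26 and -1.47 percentage points for genes of 10 to 20 kb, 20 to 50 kb and 50 kb or more. Along the chromosome, in 4 equal stretches, they were -1.71, -1.42, -1.34 and -1.16. Ends at the higher coordinate had -1.11 and those at the lower coordinate -1.72, and ends with another gene within 5 kb outside had -2.22 against -1.16 for those without. On 4L the gene length classes gave -0.732, 0.123 and -0.521, and the 4 stretches gave 0.323, 0.216, -0.636 and -1.18. Higher-coordinate ends of 4L had -0.747 and lower-coordinate ends 0.0980. The 4L values therefore changed sign with the subset, and in the last stretch the dip of 4L was about as deep as that of 4S. Over the other 16 chromosomes the length classes gave -0.526, -0.658 and 0.0764, and the 4 stretches gave -0.179, -0.607, -0.0300 and -0.730.

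The same contrast was taken over genes that both homeologs carry. In 665 gene pairs of at least 10 kb on either chromosome, ends minus flanks was -0.233 and -0.0985 on 4L and -1.21 and -1.11 on 4S. Coverage at the ends themselves was 4.68% and 4.56% on 4L and 4.25% and 3.92% on 4S, and the outside flanks had 5.26% and 5.0% on 4L and 5.76% and 5.26% on 4S. For shared genes, both lower ends and higher flanks contributed to the deeper value of 4S.

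Some ends were covered by peaks fully or nearly so, against this trend. The end of tkt.L, the pentose phosphate gene for transketolase, was covered over all 600 bp in each replicate (100%). That of st6galnac3.L, a sialyltransferase gene, had 100% and 96.2%, and that of hmces.L, whose product shields abasic DNA, had 92.5% and 100%. On 4S the leading ends were those of nrdc.S, a metalloprotease gene, at 100% in each replicate, the ubiquitin ligase gene cop1.S at 99.5% and 100%, and the AMP deaminase gene ampd3.S at 91.0% and 98.0%. Ends covered by at least 50% numbered 142 and 135 of 2952 on 4L and 85 and 86 of 2222 on 4S. The totals differ and coverage at gene ends chose the pair, so these counts are not compared.

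Windows reaching 1 kb to either side of a gene end held peaks at rates near those of all chromosomes for most gene types. Over all genes of the pair, 32% of windows in replicate 1 and 29% in replicate 2 had a peak, beside 30.2% and 26.7% on all 18 chromosomes. Protein-coding genes gave 27.8% and 24.4% beside 28.4% and 24.6%, and lncRNA genes gave 25.1% and 22.9% beside 25.5% and 22.3%. Small RNA genes stood higher over all chromosomes and over the pair as a whole, but unevenly between its homeologs. For tRNA genes 50.9% and 39.5% of windows had a peak, beside 49.1% and 44.7%, and for snoRNA genes 44.1% and 42.4%, beside 39.6% and 37.0%. By homeolog, tRNA windows gave 57.1% and 43.4% on 4L and 33.3% and 28.5% on 4S. The 4S shares were nearer to its protein-coding genes, at 27.9% and 25.1%. For snoRNA genes the shares were 46.4% and 47.6% on 4L and 38.2% and 29.4% on 4S.

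These small RNA genes sit in arrays, so many windows share a peak. The 277 tRNA genes of the pair merged into 98 windows, of which 38 and 39 held a peak, and their 554 single windows drew on 76 and 64 distinct peaks. After merging, the tRNA shares were 36.8% and 38.2% on 4L and 43.3% in each replicate on 4S, so the order of the homeologs turned. The largest tRNA array, 63 genes for tryptophan, threonine, alanine and other tRNAs at 25069747 to 25305869 of 4L, had 6.19% and 6.26% of its bases in peaks. An array of 51 glutamine and isoleucine tRNA genes at 28747947 to 28783846 of 4L had 18.1% and 14.3%. A run of 41 snoRNA genes at 29418514 to 29448856 of 4L had 10.7% and 12%. Array size and coverage were thus not in the same order among these 3.

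All 244 rRNA genes of the pair formed 1 cluster near the end of 4L, from 154733224 to 154861725, and the table lists none on 4S. Peaks covered 17.1% of this 129 kb in replicate 1 and 19.6% in replicate 2, with 37 and 40 peaks. Counted per gene end, 63.9% and 73.2% of rRNA windows had a peak, beside 69.1% and 74.4% over all chromosomes, but they merged into 8 windows. The 488 windows of this cluster are most of the 750 rRNA windows over all chromosomes. The shares are thus close in part because they count the same windows. The 2 longest overlaps between replicates on 4L lay in this cluster, 2048 bp from 154734254 and 1909 bp from 154742364, across rRNA genes and pseudogenes. Their fold enrichment was low, 2.65 and 2.95 for the longer and 1.62 and 1.80 for the other. Near-identical copies make the placement of reads within such a cluster uncertain.

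On each homeolog the 3 strongest shared peaks were taken, and 3 of these 6 leading ones lay outside annotated genes. Of all peaks, 52.2% and 52.3% on 4L and 48.3% in each replicate on 4S had their midpoint inside a gene. The count of 3 of 6 is thus near the share of all peaks. On 4S the strongest shared peak, from 124888071 to 124888417 in replicate 1, had a fold enrichment of 26.7 in each replicate. It lay 58.4 kb from the nearest coding gene. A peak inside mitf.S, the melanocyte transcription factor gene, at 121251145 to 121251491, had 22.8 and 23.0, and one inside slc13a4l.S at 10422043 to 10422377 had 25.1 and 20.6. On 4L the leading peak, at 95025958 to 95026304 within LOC121393112, had 25.0 and 24.7. The next, at 73322489 to 73322835, had 24.4 and 24.9 and lay 96.3 kb from adgrl2.L, and the third, at 30531572 to 30531918, had 24.2 and 24.1. Each of these was 335 to 351 bp wide, apart from the replicate 2 call in slc13a4l.S at 413 bp. Medians over all peaks were 336 and 373 bp on 4L and 337 and 377 bp on 4S. The longest shared stretch on 4S was 1566 bp at the end of swap70.S, from 18852607, with 3.98 and 3.74. The others were 1523 bp from 109392532, 138 kb from the glutamate receptor gene grm7.S, and 1497 bp from 47662955. In the last case the replicate 1 peak began at 47662725, 0.232 kb outside zcchc14.S. The leading peaks were picked by fold enrichment and the long ones by length, so nothing is read from the lower fold enrichment of the latter.

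Most protein-coding genes of the pair contained or adjoined a peak. Within the gene or 1 kb of it, 88.6% of 2048 genes on 4L had a peak in replicate 1 and 84.2% in replicate 2, and the shares of 1554 genes on 4S were 88.7% and 85.5%. Over all chromosomes the shares were 86.0% and 82.3%. Gene length governed much of this count. Of genes under 5 kb, 33.1% on 4L and 31.1% on 4S had no peak in either replicate, against 1.77% and 0.873% of genes of 20 to 30 kb.

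Of 169 genes in lists of chromatin, maternal, developmental, signalling and cell cycle genes, 34 had a copy on the pair, 60 copies in all, with both homeologs present for 26. A peak lay in the gene or within 1 kb in 46 copies (76.7%) in replicate 1 and 50 (83.3%) in replicate 2. Both replicates had a peak in 42 copies. Over all protein-coding genes of the 18 chromosomes the shares were 86.0% and 82.3%. The copies with a peak within 300 bp of an end were 17 (28.3%) and 15 (25%), beside 23.5% and 20.5% of protein-coding genes of any length on all 18 chromosomes. For the 26 genes on both homeologs, the 4L copy was the higher in both replicates for 14 genes, the 4S copy for 7, and 5 showed no common direction. Over all 897 homeologous gene pairs the corresponding counts were 311 for 4L and 345 for 4S. These lists were drawn up with earlier results of the data known and serve as a description only.

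**Figure D5:**
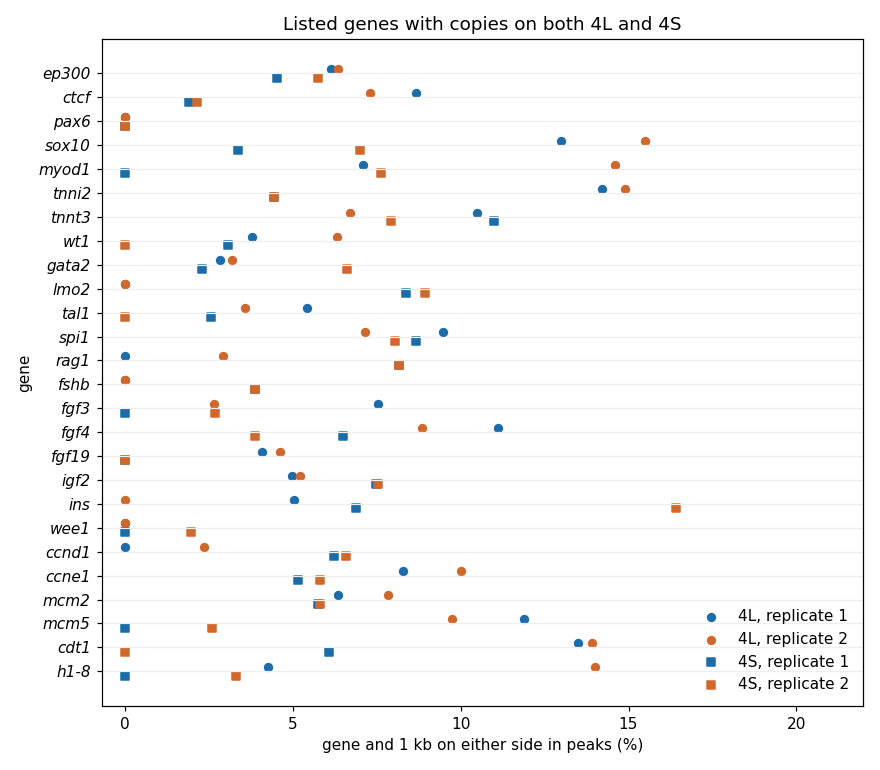
Share in peaks (%, horizontal axis) of the gene and 1 kb on either side for the 26 listed genes with copies on both chromosomes, with circles for 4L, squares for 4S and 1 colour per replicate. The points of pax6 all lie at 0, and the values of cdt1, mcm5, sox10 and tnni2 are higher on 4L in both replicates.

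Chromatin regulators on the pair were 3 of the 30 listed. The coactivator gene ep300 had 6.14% and 6.34% on 4L and 4.54% and 5.74% on 4S. For ctcf, the architectural zinc finger gene, 4L had 8.68% and 7.31%, with a peak at a gene end in each replicate, and 4S had 1.91% and 2.15% from 1 peak per replicate that was not shared. The menin gene men1.L had no peak in replicate 1 and 1 in replicate 2. Among 29 maternal and ZGA transcription factors only klf17, of the Krüppel-like family, lay on the pair, and its 4L copy had 8.28% and 15.2%, with 1 shared peak in each list. So ctcf separated its homeologs more widely than ep300 did.

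Of the 4 listed eye and neural genes on the pair, only pax6 lacked peaks. Both copies of pax6, the transcription factor that directs eye development, had no peak in the gene or 1 kb around it in either replicate. The L copy spans 13838145 to 13868112 (30 kb) and the S copy 9999672 to 10032392 (32.7 kb), and they lay in stretches without peaks of 46.5 kb and 39.2 kb, beside a median stretch between peaks of 4.80 kb on 4L and 4.64 kb on 4S. They were the longest protein-coding genes of the pair with no peak in either replicate. Stretches at least as long numbered 29 of 21660 on 4L and 59 of 19215 on 4S. Next to pax6.S, the tRNA-modifying Elongator gene elp4.S (190 kb) had 24 and 21 peaks and 5.36% and 5.75%. The neural crest gene sox10 had 13.0% and 15.5% on 4L and 3.37% and 6.99% on 4S. Its highest fold enrichment had the opposite order, with 4.34 and 3.29 on 4L and 12.3 and 11.2 on 4S. The neurotrophin gene bdnf, which the table places on 4L under the symbol bdnf.S, had 3.78% and 5.27%.

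Muscle genes had peaks on at least 1 homeolog. The myogenic regulator gene myod1 had 7.09% and 14.6% on 4L, with a peak at an end in each replicate, and 0% and 7.62% on 4S. The troponin I gene tnni2 had 14.2% and 14.9% on 4L and 4.43% in each replicate on 4S, and troponin T gene tnnt3 had 10.5% and 6.70% on 4L and 11% and 7.92% on 4S. The muscle LIM gene csrp3.L had 3.60% and 9.31% from peaks that were not shared. Of these, myod1 and tnni2 were higher on 4L in both replicates, and tnnt3 was higher on 4S within each replicate. For myod1 and tnnt3 the values on the 2 homeologs overlapped between replicates.

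Kidney, gonad and blood genes formed the largest groups with the cell cycle genes, 8 of each. The kidney and gonad regulator wt1 had 3.77% and 6.33% on 4L and 3.07% and 0% on 4S. The blood stem cell genes lmo2 and tal1 differed in direction. For lmo2 the L copy had no peak and the S copy 8.37% and 8.94%, whereas tal1 had 5.42% and 3.56% on 4L and 2.55% and 0% on 4S. The myeloid factor gene spi1 had 9.48% and 7.16% on 4L and 8.68% and 8.03% on 4S, and gata2 had 2.84% and 3.2% on 4L and 2.29% and 6.61% on 4S. Neither spi1 nor gata2 kept an order of homeologs in both replicates. The recombinase gene rag1 had 0% and 2.92% on 4L and 8.17% in each replicate on 4S, where its neighbour rag2.S had 3.37% and 6.58%. As annotated, rag1 is 9.95 kb long on 4L and 3.14 kb on 4S, and in replicate 2 each copy had 1 peak. The follicle-stimulating hormone gene fshb had no peak on 4L and 3.87% in each replicate on 4S.

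Signalling genes included a trio of fibroblast growth factor genes that are neighbours on either homeolog. For fgf3 the shares were 7.55% and 2.65% on 4L and 0% and 2.68% on 4S, for fgf4 they were 11.1% and 8.86% against 6.50% and 3.86%, and for fgf19 they were 4.08% and 4.63% against 0% in each replicate. The L copies of fgf4 and fgf19 were higher in both replicates. The growth factor gene igf2 had 4.96% and 5.21% on 4L and 7.47% and 7.54% on 4S, with a highest fold enrichment of 11 and 18.2 there, and the insulin gene ins had 5.04% and 0% on 4L and 6.87% and 16.4% on 4S. The Wnt ligand gene wnt5a.S had 2.95% and 4.67%.

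Cell cycle and replication genes were higher on 4L in both replicates for 5 of the 7 with both homeologs, beside 311 of all 897 gene pairs. The licensing factor gene cdt1 had 13.5% and 13.9% on 4L and 6.09% and 0% on 4S. The replicative helicase genes mcm5 and mcm2 had 11.9% and 9.75%, and 6.35% and 7.83%, on 4L, against 0% and 2.59%, and 5.76% and 5.82%, on 4S. The cyclin gene ccne1 had 8.29% and 10% on 4L and 5.15% and 5.81% on 4S, with a peak at a gene end in all 4 cases. The oocyte linker histone gene h1-8 had 4.26% and 14% on 4L and 0% and 3.31% on 4S, and the origin recognition gene orc1.L had 5.58% and 6.52%. The exceptions were ccnd1, with 0% and 2.35% on 4L against 6.22% and 6.59% on 4S, and the mitotic inhibitor kinase gene wee1, with no peak on 4L and 0% and 1.98% on 4S. Genes of this length hold few peaks, so a value of 0% in 1 replicate and not in the other often meant a single peak.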

How the data were processed

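Whole X. laevis embryos of 2 replicates were described by 1 peak list each. The authors prepared CATaDa libraries, mapped reads to assembly v10.1 with the damidseq pipeline and Bowtie2, and called broad peaks separately per replicate with MACS 3.0.1 (the submitters' processing notes list Bowtie2 and MACS3). The deposited fold enrichment is the caller's ratio of pileup to background, the deposited -log10 p and -log10 q are its averages over a peak, and the deposited score, a whole-number form of the -log10 q, was not used. The cutoff, and whether a control library entered the calling, were not given in the sources used here. The lists hold no read counts, so depth is unknown, and no interval or floor was computed.

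Peaks were merged, and covered bases were counted over chromosomes, 1 Mb bins, gene ends and genes in Python 3.11.15 (numpy 2.4.6, pandas 2.3.3, scipy 1.17.1). Chromosome length was the last coordinate in the peaks or the gene table, and only full bins were used. Genes, of the RefSeq v10.1 table, carry no strand, and coordinates count from 1. The arithmetic was tested on simulated data. With 1 group of 2 replicates no test was made, and values are given per replicate or as mean ± SD. The chromosome pair, the gene lists and the measures were chosen with earlier results of these data known. Named items were the listed genes, the 3 strongest and 3 longest shared peaks, the 3 highest and lowest bins and the 3 most covered gene ends per chromosome, and the 3 homeologous gene pairs furthest apart in each direction. Matched windows, limits of reversed gene order, RNA gene arrays and stretches without peaks around genes were added after values were seen. RNA genes of a type within 50 kb formed an array. Alternatives were the 50% of peaks with the higher fold enrichment, a -log10 q minimum of 2, shared peaks only, other bins, overlaps, genes, windows and flanks, and omission of each replicate.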

Additional observations from a re-analysis of the deposited data

How the results depend on the processing

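In each of 9 settings of the gene-end contrast, 4S had the lowest mean of 18 chromosomes and pair 5 had a lower mean than pair 4. Pair 4 ranked 2 of 9 pairs in 8 settings and 4 at isolated ends, those with no other gene within 5 kb outside. In replicate 2 alone 4S ranked 2 of 18 there. Of 45 alternatives, 15 moved by less than the SD between replicates and 30 by more. Many of the latter follow from counting fewer peaks or another length. No value turned its sign, but coverage, spread over bins, overlap, fold enrichment and window shares are never negative. Only differences could turn sign, and that of homeologous genes fell to 0 with a -log10 q of at least 2. Ends minus flanks, for the pair, 4L and 4S in turn, was -0.402, -0.0506 and -0.869 with the upper 50% of peaks by fold enrichment, -0.565, -0.0756 and -1.16 at ends with no other gene within 5 kb outside, and -0.615, -0.192 and -1.18 with 500 bp on each side. With genes of at least 20 kb it was -0.659 for the pair and -0.132 for 4L, with outside flanks only -0.945 and -0.524, and with inside flanks only -0.639 and -0.125. The 4L values of single replicates differed in sign with the upper 50% of peaks (0.0443 and -0.145) and at isolated ends (-0.208 and 0.0572). Coverage of the pair, 4.87% in the main setting, was 4.56% with a -log10 q of at least 2, 2.43% with the upper 50% and 3.72% with shared peaks, and 4S minus 4L was 0.135 points with the upper 50%. The SD over bins, 1.09 points, became 1.06, 0.589 and 0.987 under the same settings, 1.19 in 500 kb bins and 1.07 in offset bins. Median fold enrichment was 4.88 for shared peaks and 4.55 with a -log10 q of at least 2. The median difference of homeologous genes was 0.0771 points for gene bodies and 0 with a -log10 q of at least 2. Gene-end windows with a peak were 16% at 500 bp and 19.3% with shared peaks. Leaving out either replicate gave 4.72% to 5.02% for coverage, 0.228 to 0.272 for 4S minus 4L, 1.08 to 1.09 for the SD over bins, 4.33 to 4.48 for fold enrichment, -0.860 to -0.724, -0.370 to -0.280 and -1.51 to -1.31 for ends minus flanks of the pair, 4L and 4S, 0.0496 to 0.0586 for homeologous genes and 24.4% to 27.8% for windows. Overlap needs both lists and was not recomputed so. Starts and ends of transcription were not run apart for lack of strand. With 2 replicates the SD has 1 degree of freedom, and unknown depth leaves counting error unmeasured.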

Other observations

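Without any hypothesis attached, the absence of peaks from both copies of pax6 was set beside other long genes. Among the 1300 genes on 4L and 4S that encode proteins and span 29 kb or more, a length chosen after the values were seen, 2 had no peak in the gene or within 1 kb in either replicate, and these were pax6.L and pax6.S. Over all 18 chromosomes, 11 of 4526 genes of 30 to 50 kb and 2 of 6728 genes of 50 kb or more had none. In the class of 30 to 50 kb, 0 of 323 genes on 4L and 1 of 216 on 4S had none. The limit of 29 kb lies just below the length of pax6.L, and long genes without a peak were rare on all chromosomes. Nothing about the pair is therefore read from this count. The next longest such genes on the pair were ovol1.L, a zinc finger gene of epithelia, at 26.6 kb, and ccdc134.S at 24.3 kb. The homeologs of these 2 were not among the 12 longest genes without a peak. That list ends at 17.5 kb, so a shorter homeolog without a peak would not appear in it.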
